A study of Mus musculus with 12 samples.

Results

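The sperm calcium channel genes and Slc9c1 were followed through male meiosis in mice with and without ZFP541. The 9 genes (Catsper1, Catsper2, Catsper3, Catsper4, Catsperb, Catsperd, Catsperg1, Catsperg2 and Slc9c1) were taken by symbol from the 55450 genes of the deposited tables, and all 9 were found. CatSper is the calcium channel of the sperm tail. Its pore is built from the CATSPER1, CATSPER2, CATSPER3 and CATSPER4 proteins, which are held with auxiliary proteins such as CATSPERB, CATSPERD and CATSPERG, and sperm that lack it cannot make the vigorous whip-like strokes needed to reach and enter the egg. Slc9c1 encodes the sperm-specific sodium/hydrogen exchanger, a membrane protein of the sperm tail needed for motility. RNA of Catsper2 is known to appear during meiosis, whereas Catsper1, Catsper3 and Catsper4 are known as genes of the later, haploid spermatids.

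The study asked which genes change in spermatocytes without Zfp541, a zinc finger gene expressed in meiotic germ cells. All mice were C57BL/6 and were fed WIN 18,446, a blocker of retinoic acid synthesis, for 7 days from 2 days after birth, then injected with retinoic acid so that their germ cells entered meiosis together. Testes were taken 260 h later (labelled early pachytene) or 360 h later (labelled late pachytene), the long stage of meiosis in which paired chromosomes recombine. The 4 groups were wild type at 260 h, Zfp541 knockout at 260 h, wild type at 360 h and Zfp541 knockout at 360 h, with 3 libraries each and up to 96 hand-picked germ cells per library. The labels give neither the number of animals behind a library nor the deleted part of Zfp541. Zfp541 reads were present in all 12 libraries, and counts of 3′ ends with an unknown deletion do not check the genotype.

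The 12 libraries held 50 to 94 kept cells and 3601518 to 27202665 gene UMIs (unique molecular identifiers, each marking 1 captured RNA molecule). Pachytene markers were present in every library, with 8 markers summing to 762 to 7355 CPM (UMI counts scaled to the TMM-corrected total of the library). Libraries 1 and 2 of wild type at 260 h stood apart: 25 and 56 of their cells lay in cluster 2 of the authors' 5 clusters, which held 0 cells of the other 4 libraries at 260 h. Summed Leydig cell markers were also higher in these 2 libraries (96.2 and 56.0 CPM) than in the other 10 (9.24 to 22.3 CPM), and the part of this in the results was not tested. Their results are therefore given also with library 3 as the only wild-type library at 260 h, an alternative chosen after seeing the data, in which that lone library is assumed to vary like those of the other groups. At 360 h, cluster 5 held 83, 91 and 93 wild-type cells and 0 knockout cells, and cluster 4 held 77, 66 and 77 knockout cells and 0 wild-type cells, so genotype and cluster cannot be told apart at that time. The only cells of these clusters at 260 h were in library 1 of wild type, 2 in cluster 4 and 1 in cluster 5. Their part in the levels of that library was not tested.

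Promoter windows from RefSeq (build GRCm38.p6, which has the coordinates of mm10) were matched by symbol for 7 of the 9 genes, in 9 windows running from 250 bases before to 50 bases after the start. The 250 bases before the start are shown for Catsperb, Slc9c1 and Catsperg1, genes whose RNA was lower in the knockout at 360 h. They lie at chr12:101404423-101404672 on the plus strand (Catsperb), chr16:45535016-45535265 on the plus strand (Slc9c1) and chr7:29214034-29214283 on the minus strand (Catsperg1). Capitals mark CAGTTG or its reverse complement CAACTG, the core bound by MYB factors, a family that includes the meiotic regulator MYBL1.
Catsperb: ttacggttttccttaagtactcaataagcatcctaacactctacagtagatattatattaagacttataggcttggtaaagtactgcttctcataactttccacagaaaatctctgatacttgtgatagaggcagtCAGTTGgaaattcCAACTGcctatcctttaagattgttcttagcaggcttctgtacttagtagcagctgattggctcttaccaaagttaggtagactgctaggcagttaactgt
Slc9c1: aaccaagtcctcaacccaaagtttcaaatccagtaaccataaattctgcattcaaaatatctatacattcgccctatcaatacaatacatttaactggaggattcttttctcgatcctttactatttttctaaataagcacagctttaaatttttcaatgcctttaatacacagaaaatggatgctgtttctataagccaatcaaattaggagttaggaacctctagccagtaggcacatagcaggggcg
Catsperg1: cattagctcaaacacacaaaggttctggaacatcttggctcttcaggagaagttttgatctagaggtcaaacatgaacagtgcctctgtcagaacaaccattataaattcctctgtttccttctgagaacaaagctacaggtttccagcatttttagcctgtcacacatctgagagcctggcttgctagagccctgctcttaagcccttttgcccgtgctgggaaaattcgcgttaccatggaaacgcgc

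Searched on both strands over the full 300 bases, CAGTTG was found in the windows of 2 of the 7 genes, against 15.36% of the 27025 genes in the table (13.65% of its 32851 windows). Catsperb held 2 matches, starting at -114 on the plus strand and -101 on the minus strand relative to the start, and Slc9c1 held 1, beginning 33 bases into the part after the start that is not printed. The CRE core TGACGT was found in 1 gene, Catsperd, at -142 on the minus strand (8.374% of all genes and 7.513% of all windows). This match lay in window 1 of Catsperd (56626797 to 56627096), and its position is relative to the start of that window's transcript. Window 2 (56627893 to 56628192), which spans the annotated gene start at 56628143, held 0 matches. The RFX core GTTGCC was found in 0 of 7 (14.14% of all genes and 12.51% of all windows). No pair of the 3 motifs overlapped in these windows. Only these exact letters were searched, and variants of the motifs were not counted. A match is a description of the letters and not a binding site.

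In wild-type cells, every gene of the set that passed the filter on low counts (7 of 9) had a higher fitted level at 360 h than at 260 h, and 6 of the 7 rose past an adjusted p of 0.05 in edgeR's quasi-likelihood test. Over all 20279 genes tested, 20.9% rose in the same comparison. Catsper1, the gene not called, was at 0, 0.178 and 0 CPM at 260 h and 0, 0.0943 and 6.24 CPM at 360 h. Its fitted rise thus rested on library 3 of wild type at 360 h. In the knockout only 2 of the 7, Catsperb and Catsperd, rose from 260 h to 360 h, against 13.3% of all genes, and 0 fell (10.2% of all genes). The median log2 change over time of the 7 genes was 2.996 in wild type and 0.69 in the knockout, beside medians of -0.10 and -0.15 over all genes tested. Catsper3 and Catsper4 did not pass the filter and are described by their counts.

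Between the genotypes, 3 of the 7 tested genes (Catsperb, Catsperg2 and Slc9c1) fell in the knockout at 260 h, where 1.31% of all genes were called lower. At 360 h 5 of 7 fell (Catsper2, Catsperb, Catsperg1, Catsperg2 and Slc9c1), where 13.5% of all genes were called lower. None of the 7 was called higher in the knockout at either time (0.582% and 8.93% of all genes were). The median genotype difference of the 7 was -1.30 at 260 h and -2.26 at 360 h on the log2 scale, beside -0.01 and 0.03 over all genes tested.

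**Figure D1:**
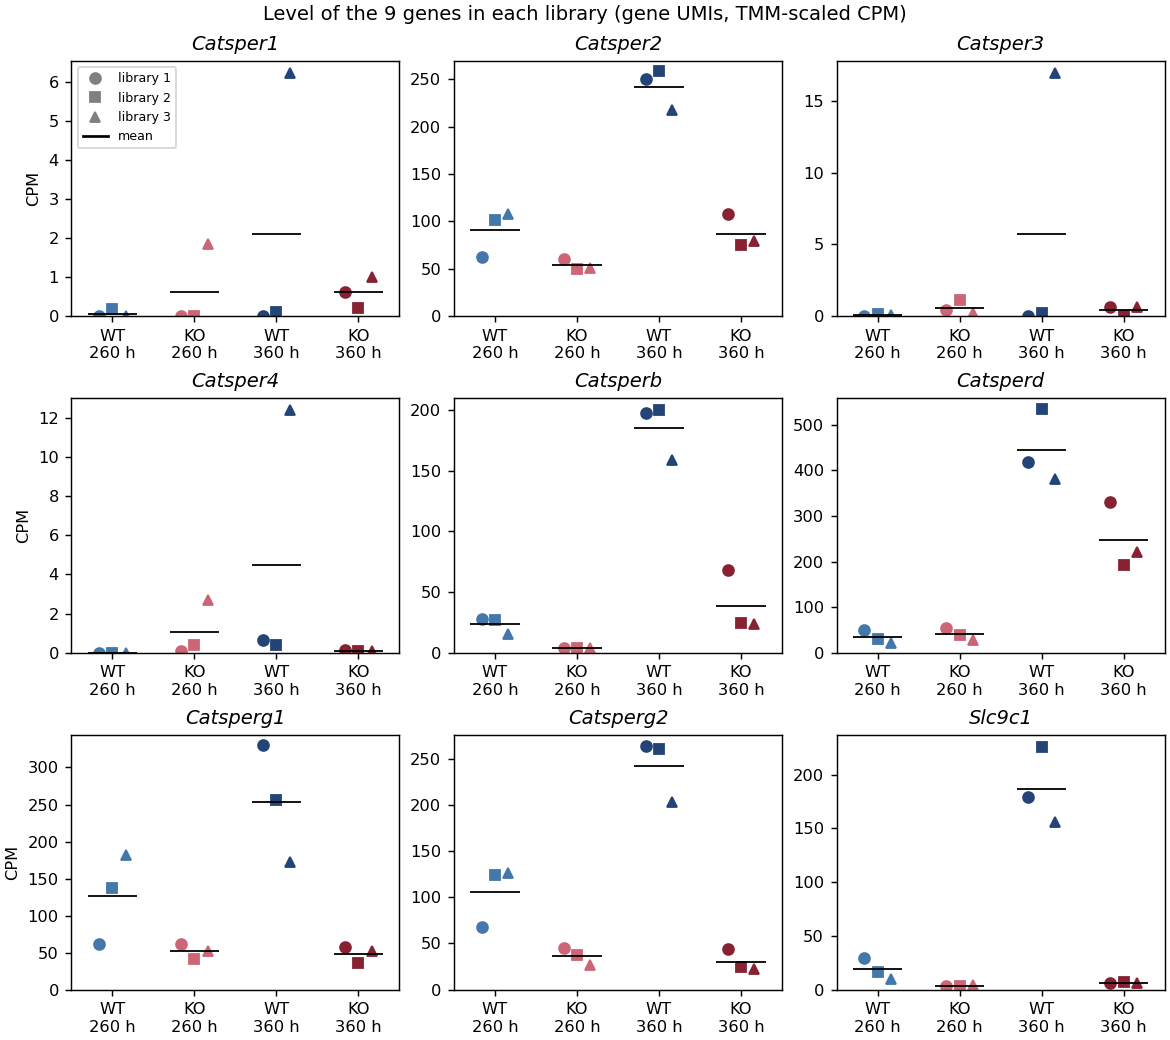
Level of each of the 9 genes in every library, as CPM on a linear axis that differs between panels; each point is a library and each bar the mean of 3 libraries. For Catsper2, Catsperb, Catsperd, Catsperg1, Catsperg2 and Slc9c1 the wild-type libraries at 360 h lie above all knockout libraries of that time, and for Catsper1, Catsper3 and Catsper4 library 3 of wild type at 360 h stands above the other 11. The share of all genes separated in this way was not counted.

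Slc9c1 (ENSMUSG00000033210.16, mm10 chromosome 16, 45535309 to 45607001, plus strand) showed the largest genotype difference of the 7 genes at 360 h. Its level was 29.6, 16.4 and 10.3 CPM in the wild-type libraries at 260 h, and 3.49, 2.87 and 4.12 CPM in the knockout libraries. At 360 h it was 179, 226 and 156 CPM in wild type and 6.05, 6.97 and 5.98 CPM in the knockout. In library 1 of wild type at 260 h, 55 of the 125 Slc9c1 UMIs (44.0%) came from 3 of 52 cells, 42 of them from 1 cell. In libraries 2 and 3 of that group the top 3 cells gave 25.0% and 24.1%. The groups did not overlap at either time, and the knockout libraries at 360 h lay below all 3 wild-type libraries of the earlier time. The log2 difference was -2.41 ± 0.37 (SE, 3 against 3 libraries, adjusted p = 0.00371) at 260 h and -4.88 ± 0.39 (adjusted p = 1.44e-06) at 360 h. Slc9c1 was the 1 gene of the 7 for which the genotype effect itself differed between the times, by -2.47 ± 0.50 (adjusted p = 0.00973; 2.78% of all genes were called lower in this comparison and 2.3% higher). In wild type its level rose by 3.34 ± 0.36 on the log2 scale between the times (adjusted p = 1.39e-05), and in the knockout the change of 0.87 ± 0.36 did not pass (adjusted p = 0.0974). With library 3 as the only wild type at 260 h the early difference was -1.70 (adjusted p = 0.0564), and without cells of the pre-meiotic class the difference between the times was -2.20 (adjusted p = 0.0566).

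Catsper2 (ENSMUSG00000033486.14, chromosome 2, 121392631 to 121413792, minus strand), the pore gene expressed in meiosis, was detected in all 12 libraries. Its level was 62.0, 102 and 108 CPM in wild type at 260 h and 60.8, 50.2 and 50.4 CPM in the knockout. At 360 h it was 250, 259 and 218 CPM in wild type and 107, 75.0 and 78.8 CPM in the knockout. The knockout at 360 h overlapped the wild type at 260 h, whereas the wild type at 360 h lay above every other library. The log2 difference was -1.48 ± 0.26 at 360 h (adjusted p = 0.000924), and -0.75 ± 0.26 at 260 h, which did not pass (adjusted p = 0.199). Without library 1 of wild type at 260 h, the lowest of its group, the early difference was -1.03 (adjusted p = 0.0442). Wild-type levels rose by 1.42 ± 0.26 over time (adjusted p = 0.000699), and by 1.15 (adjusted p = 0.0553) with library 3 as the only wild type at 260 h, while the knockout change was 0.69 ± 0.26 (adjusted p = 0.0669). These changes over time were not shown to differ between the genotypes (-0.73 ± 0.37, adjusted p = 0.281). Its exons overlap those of 1 annotated gene, Pdia3 on the other strand, by 18 bases at the first exon of each.

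Catsper1 (ENSMUSG00000038498.4, chromosome 19), Catsper3 (ENSMUSG00000021499.12, chromosome 13) and Catsper4 (ENSMUSG00000048003.12, chromosome 4), the other pore genes, had few UMIs outside 1 library. Library 3 of wild type at 360 h held 141 UMIs of Catsper1, 383 of Catsper3 and 280 of Catsper4, together 804, whereas the other 11 libraries held 0 to 23 of the 3 genes together. The 23 were those of library 3 of the knockout at 260 h, spread over 13 of its 50 cells. Within library 3 of wild type at 360 h, 619 of the 804 UMIs (77.0%) came from 3 of its 94 cells. The same 3 cells held 3776 of the 5455 UMIs (69.2%) of 7 round spermatid markers (Acrv1, Tnp1, Tnp2, Prm1, Prm2, Tssk1 and Spaca1) in that library. The authors' table placed these 3 cells in cluster 5, with the other wild-type cells of 360 h. In each of them Catsper2, Catsperb, Catsperd, Catsperg1, Catsperg2 and Slc9c1 were also present, with 6 to 178 UMIs per gene.

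The tested pore gene Catsper1 differed between the genotypes by 3.21 ± 2.40 (adjusted p = 0.665) at 260 h and by -1.79 ± 1.63 (adjusted p = 0.463) at 360 h, and neither difference passed. Its wild-type change over time of 5.18 ± 2.25 did not pass (adjusted p = 0.0792), and did without library 1 of wild type at 360 h (5.76, adjusted p = 0.0404). Catsper4 had 0 UMIs in all wild-type libraries at 260 h, which in 52, 68 and 89 cells allows shares of cells with a UMI of up to 5.77%, 4.41% and 3.37%. The knockout libraries at 260 h held 1, 3 and 13 UMIs of Catsper4, the 13 in 8 of 50 cells. At 360 h the knockout libraries held 1 UMI each of Catsper4, and the wild-type libraries 7, 4 and 280. Catsper3 was at 0, 2 and 383 UMIs in wild type and 5, 0 and 7 in the knockout at that time. Round spermatid markers summed to 19.6 to 241.3 CPM in wild type and 3.99 to 7.58 CPM in the knockout at 360 h, with 6 or 7 of the 7 detected in each library. At 260 h they summed to 10.6 to 34.1 CPM in wild type and 24.9 to 50.1 CPM in the knockout. Such a sum can rest mainly on 1 marker. Spaca1 gave 440 of 468 UMIs in library 3 of wild type at 260 h, and Tssk1 132 of 214 in library 1 of wild type at 360 h. The part of these markers in the levels of the pore genes was not tested. The 5 calls at 360 h described above were all kept without library 3 of wild type, with 6 genes of the set tested.

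**Figure D2:**
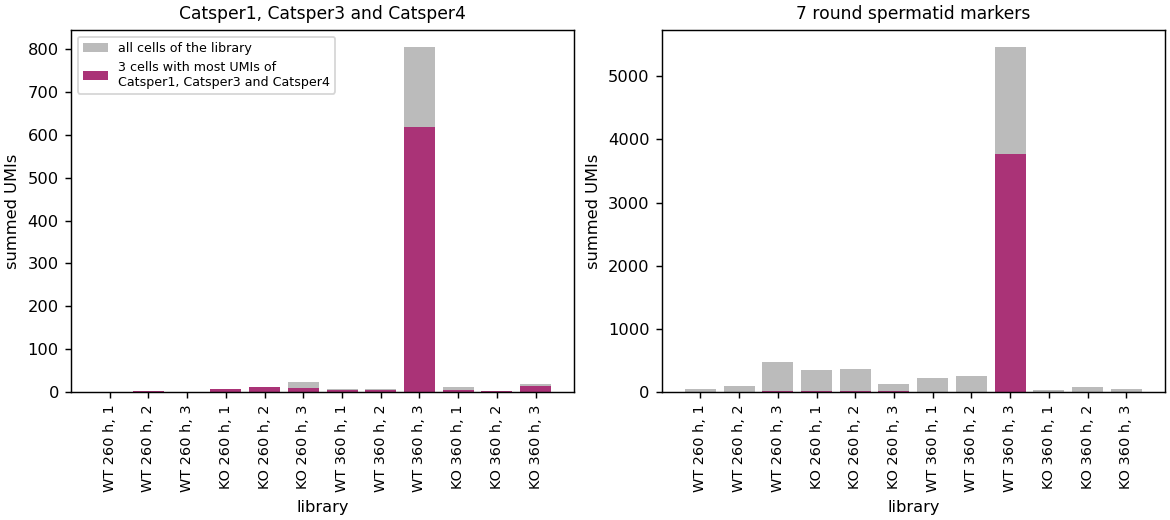
UMIs of Catsper1, Catsper3 and Catsper4 together (left) and of 7 round spermatid markers (right) in each library, on linear axes from 0; grey bars are all cells and purple bars the 3 cells with the most UMIs of the 3 pore genes. Library 3 of wild type at 360 h reaches 804 and 5455 UMIs, of which 619 and 3776 are in the same 3 cells.

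Catsperb (ENSMUSG00000047014.7, chromosome 12, 101404653 to 101626009, plus strand), an auxiliary subunit with a large part outside the cell, was lower in the knockout at both times and still rose over time in it. Its level at 260 h was 27.9, 26.9 and 15.4 CPM in wild type and 4.22, 3.97 and 4.12 CPM in the knockout. At 360 h it was 198, 200 and 159 CPM in wild type and 68.6, 24.5 and 23.4 CPM in the knockout. At 260 h the top 3 cells gave 55 of 118 Catsperb UMIs (46.6%) in library 1 of wild type. In library 1 of the knockout at that time they gave 33 of 46 (71.7%). Library 1 of the knockout at 360 h stood above its other 2 libraries and below all wild-type libraries of that time. The log2 difference was -2.50 ± 0.41 (adjusted p = 0.00508) at 260 h and -2.26 ± 0.39 (adjusted p = 0.000657) at 360 h. The rise over time was 2.996 ± 0.40 in wild type (adjusted p = 5.56e-05) and 3.23 ± 0.42 in the knockout (adjusted p = 9.32e-05), and the difference between these, 0.24 ± 0.54, did not pass (adjusted p = 0.851). With library 3 as the only wild type at 260 h the early difference was -2.03 (adjusted p = 0.0988).

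Catsperd (ENSMUSG00000040828.10, chromosome 17, 56628143 to 56664456, plus strand), an auxiliary subunit needed for a stable channel, was called different between the genotypes at neither time, and rose over time in both. At 260 h it measured 50.4, 31.3 and 21.4 CPM in wild type and 55.0, 39.5 and 28.8 CPM in the knockout. At 360 h it measured 419, 533 and 381 CPM in wild type and 330, 192 and 222 CPM in the knockout. In library 1 of wild type at 260 h the top 3 cells gave 102 of 213 Catsperd UMIs (47.9%). The genotypes overlapped at 260 h and did not at 360 h. Neither difference passed: 0.27 ± 0.34 (adjusted p = 0.819) at 260 h and -0.84 ± 0.33 (adjusted p = 0.0818) at 360 h, the second passing without library 1 of the knockout (-1.17, adjusted p = 0.0306). The rise over time was 3.70 ± 0.37 in wild type (adjusted p = 9.88e-06) and 2.59 ± 0.35 in the knockout (adjusted p = 0.000131), with a difference between them of -1.11 ± 0.47 (adjusted p = 0.191).

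Catsperg1 (ENSMUSG00000049676.14, chromosome 7, 29181321 to 29214035, minus strand) and Catsperg2 (ENSMUSG00000049123.10, chromosome 7, 29697219 to 29727032, minus strand) are near-identical genes of the same chromosome that encode forms of the CATSPERG subunit. Their longest transcripts were 96.74% identical over 4386 aligned bases, and 848 of the 4304 windows of 100 bases in Catsperg1 occurred unchanged in Catsperg2. In the last 500 bases, the end these libraries capture, 37 of 401 windows were shared. No source used here says how reads fitting both copies were counted, and the split between the 2 genes is uncertain.

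Catsperg1 was at 62.2, 137 and 182 CPM in wild type and 61.3, 41.3 and 51.9 CPM in the knockout at 260 h. By 360 h it stood at 330, 257 and 172 CPM in wild type and at 58.1, 36.1 and 51.5 CPM in the knockout. The wild-type libraries of both times overlapped with each other, and the knockout libraries of both times lay below all of them. The difference was -2.38 ± 0.37 at 360 h (adjusted p = 0.000331) and -1.30 ± 0.36 at 260 h, which did not pass (adjusted p = 0.0918) but did without library 1 of wild type (-1.70, adjusted p = 0.00932). With library 3 as the only wild type at 260 h the early difference was -1.95 (adjusted p = 0.0397) and the wild-type change over time 0.45 (adjusted p = 0.512). The wild-type rise over time of 0.99 ± 0.36 (adjusted p = 0.0382) was lost without library 1 or 2 of wild type at either time (adjusted p from 0.0601 to 0.15). It was also lost with the replicate block (0.0586), with ERCC scaling (0.106), with only the compared groups (0.0952) and without pre-meiotic cells (0.0987). In the knockout the change was -0.09 ± 0.36 (adjusted p = 0.888), and the difference between the changes, -1.08 ± 0.51, did not pass (adjusted p = 0.242).

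Catsperg2 was at 67.4, 124 and 126 CPM in wild type and 44.8, 37.2 and 26.8 CPM in the knockout at 260 h. By 360 h it stood at 264, 260 and 203 CPM in wild type and at 44.2, 24.0 and 22.1 CPM in the knockout. No library of the knockout reached the lowest wild-type library at either time. The difference was -1.55 ± 0.33 (adjusted p = 0.0262) at 260 h and -3.01 ± 0.35 (adjusted p = 2.76e-05) at 360 h. The call at 260 h was lost without library 2 or 3 of wild type or any 1 of the knockout (adjusted p from 0.0526 to 0.124) and with library 3 as the only wild type (-1.91, adjusted p = 0.0634). Wild-type levels rose by 1.19 ± 0.33 (adjusted p = 0.00946), and by 0.92 (adjusted p = 0.211) with library 3 as the only wild type at 260 h, and the knockout change was -0.27 ± 0.33 (adjusted p = 0.587). The genotype effect at 360 h minus that at 260 h, -1.46 ± 0.46, did not pass (adjusted p = 0.0808) and did without library 1 of the knockout at 360 h (-1.94, adjusted p = 0.0225).

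**Figure D3:**
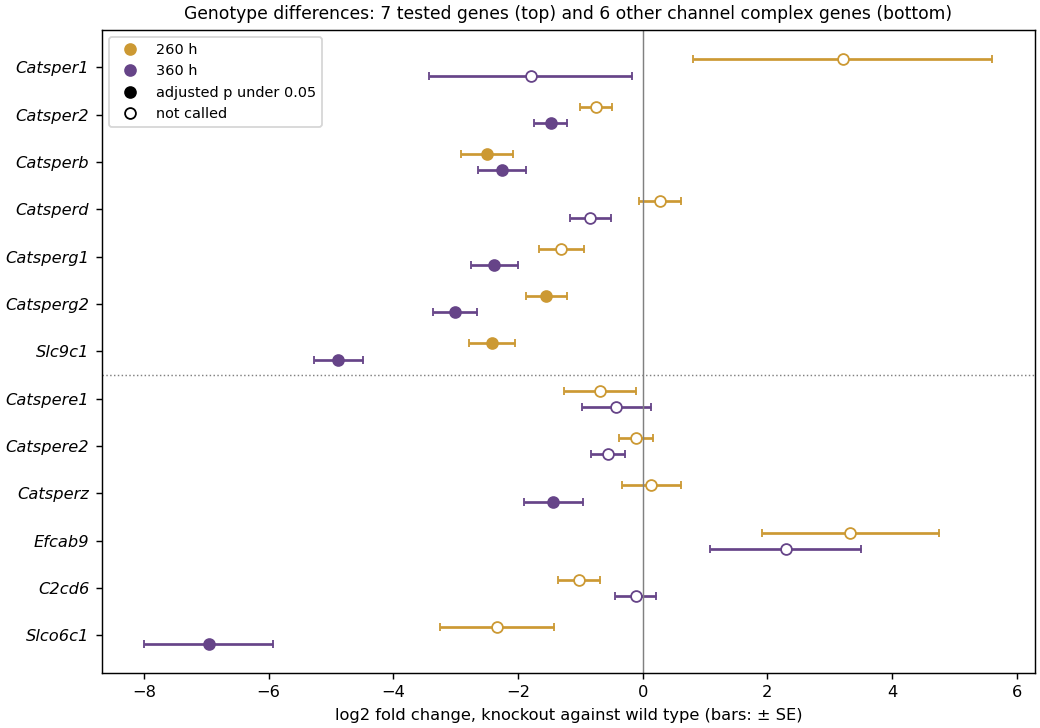
Log2 fold change of knockout against wild type at 260 h (ochre) and 360 h (purple) for the 7 tested genes (top) and 6 other channel complex genes (bottom), with bars of 1 SE from 3 against 3 libraries; filled points have an adjusted p under 0.05. Slc9c1 reaches -4.88 at 360 h, and Slco6c1 -6.96.

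The order of the group means differed among the genes. For Catsper2, Catsperg1, Catsperg2 and Slc9c1 the wild type at 360 h came at the top, the wild type at 260 h next and the 2 knockout groups below it. For Catsperb and Catsperd the knockout at 360 h came next after the wild type at 360 h. Neighbours in these orders overlapped for Catsper2 (wild type at 260 h with knockout at 360 h), Catsperb (knockout at 360 h with wild type at 260 h), Catsperd (both groups at 260 h), Catsperg1 (both wild-type groups, and both knockout groups) and Catsperg2 (both knockout groups).

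Stage markers also moved with genotype at both times. At 260 h the 8 pachytene markers summed to 1815 to 2844 CPM in wild type and 762.4 to 1243 CPM in the knockout, without overlap. The 5 markers of earlier prophase overlapped at that time (1697 to 2224 CPM in wild type and 1795 to 2109 CPM in the knockout). At 360 h the pachytene markers summed to 4578 to 7355 CPM in wild type and 3524 to 4850 CPM in the knockout, with overlap. The markers of earlier prophase summed to 525.6 to 643.2 CPM in wild type and 849.2 to 1382 CPM in the knockout, without overlap. Of these, Prdm9, Sycp1, Dmc1 and Meiob were called higher in the knockout at 360 h. Spo11 went the other way, at 172, 170 and 160 CPM in wild type and 108, 127 and 117 CPM in the knockout (not called). At 260 h Spo11 was called lower by edgeR's quasi-likelihood test (-1.56, adjusted p = 0.0274), although the sums overlapped. Among the pachytene markers at 360 h, Ccna1, a cyclin of late prophase, was at 56.8, 81.8 and 77.1 CPM in wild type and 3.91, 5.74 and 4.71 CPM in the knockout. Ovol2, a transcription factor, was at 72.1, 97.5 and 138 CPM in wild type and 2.27, 0.717 and 0.635 CPM in the knockout. Ccna1 and Ovol2 showed the largest log2 differences of the 8 pachytene markers at 360 h. Pgk2, Tbpl1 and Insl6 were called lower in the knockout at 360 h, as were Ccna1 and Ovol2. Piwil1 (-0.401 on the log2 scale), Mybl1 (-0.411) and Ldhc (-0.291) were not called. Spermatogonial markers summed to 63.0 to 203.7 CPM in wild type and 179 to 590.9 CPM in the knockout at that time. The part of these marker levels in the differences of the channel genes was not tested. In summed libraries, fewer cells that carry an RNA and less of it per cell cannot be told apart.

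Shares of cells with a UMI follow the mean level and depth, and do not separate fewer cells with the RNA from less RNA per cell. At 360 h Slc9c1 was the gene of the set whose shares lay farthest apart between the genotypes. With every cell thinned to 40000 gene UMIs, 98.8%, 100% and 96.8% of the cells of the wild-type libraries at 360 h held a Slc9c1 UMI, against 19.5%, 20.0% and 22.5% in the knockout (33.8%, 47.5% and 36.0% without thinning, and 100% in each wild-type library). At 260 h the thinned wild-type shares were 57.7%, 45.6% and 24.7%, and those of the knockout 10.98%, 7.14% and 12% (57.4% to 71.2% and 16% to 23.2% without thinning). The wild-type shares at 260 h were thus spread over a wide range and did not overlap those of the knockout. For Catsperb the thinned shares at 260 h ranged from 32.6% to 55.9% in wild type and from 8.54% to 16% in the knockout (63.5% to 77.5% and 14.6% to 22.9% without thinning). Its thinned wild-type shares at 360 h were 98.8%, 98.9% and 96.8%, and those of the knockout 85.7%, 57.5% and 51.7% (100% in each wild-type library and 76.4% to 96.1% without thinning).

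Catsper2 and Catsperd were detected in most knockout cells at 360 h. Thinned shares were 91.2% to 93.5% for Catsper2 and 98.8% to 100% for Catsperd (97.5% to 100% and 100% without thinning). Those of Catsperg1 and Catsperg2 were 76.6% to 89.9% and 52.8% to 72.7% (93.8% to 98.9% and 81.2% to 89.6% without thinning). Cells with all 6 of these well detected genes after thinning made up 97.7%, 98.9% and 89.4% of the wild-type libraries at 360 h and 13.0%, 6.25% and 7.87% of the knockout libraries. At 260 h the same share was 26.9%, 20.6% and 4.49% in wild type and 0, 1.43% and 2.00% in the knockout, so that co-detection was uncommon before 360 h in both genotypes.

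**Figure D4:**
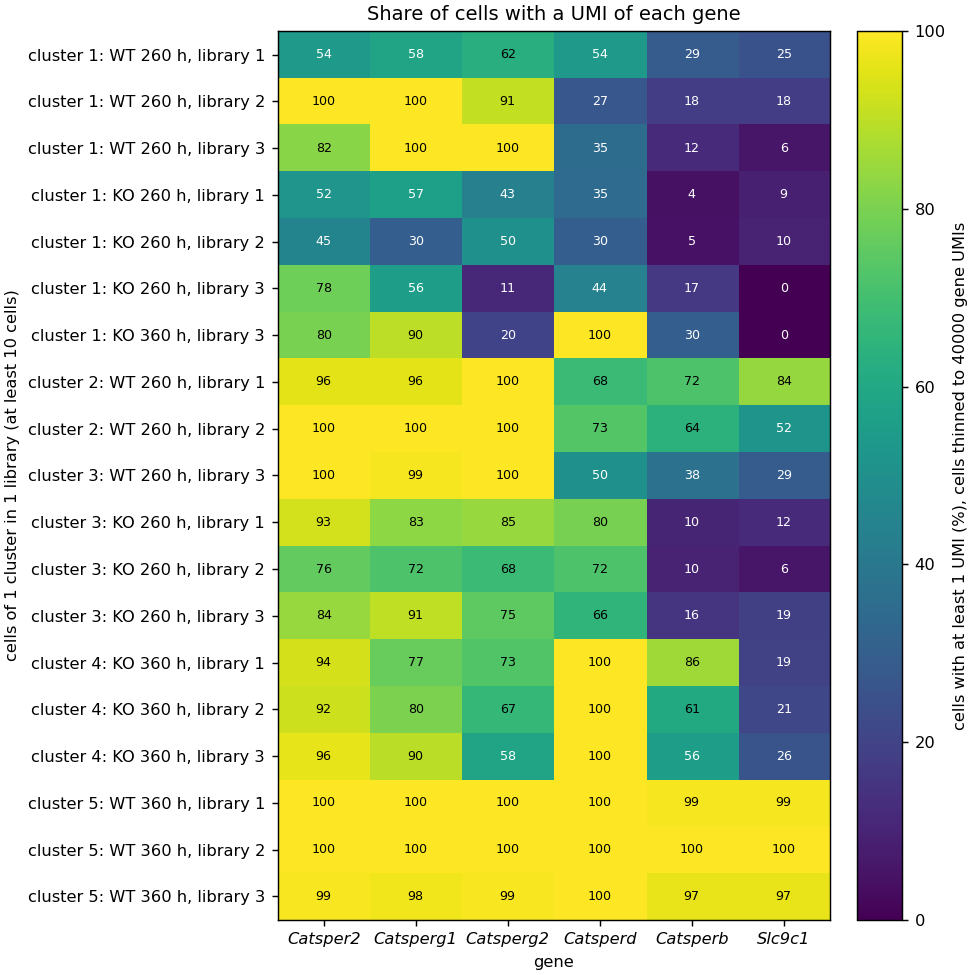
Share of cells with at least 1 UMI of each of 6 genes (columns), after thinning to 40000 gene UMIs, in the cells of 1 cluster of 1 library (rows, at least 10 cells); numbers and colour both give percent. Slc9c1 is at 97% to 100% in cluster 5 and at 19% to 26% in cluster 4.

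Across the authors' clusters, which were made from these cells and are given as a description, cluster 1 had as many cells in each library as their pre-meiotic class. There Slc9c1 was at 2.93 to 6.43 CPM in the wild-type libraries at 260 h and 0 to 3.11 CPM in the knockout (here scaled to the gene UMIs of those cells alone, without TMM). In cluster 3, the 1 wild-type library with cells there had 12.3 CPM of Slc9c1, 18.4 of Catsperb and 23.0 of Catsperd. The 3 knockout libraries in that cluster had 2.74 to 8.59 CPM of Slc9c1, 4.72 to 6.30 of Catsperb and 52.2 to 74.2 of Catsperd. The Slc9c1 and Catsperb values of the knockout libraries thus lay below, and their Catsperd values above, those of that 1 wild-type library, and the difference was not tested. Cluster 1 at 260 h was the only cluster with enough libraries of both genotypes for a fit. In it 0 of 5 tested genes of the set were called by edgeR's quasi-likelihood test, where 4 of 12223 genes (0.0327%) were called in all, so the count of 0 is no result about the set. The differences were -1.17 for Catsper2 (adjusted p = 0.367), -1.24 for Catsperb (0.76), -0.02 for Catsperd (0.998), -1.92 for Catsperg1 (0.134) and -2.05 for Catsperg2 (0.168).

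Of 35 further genes of the channel complex and of sperm ion transport and signalling, 29 were tested. At 360 h 11 fell and 0 rose in the knockout (13.5% and 8.93% of all genes did), and at 260 h 2 fell and 1 rose (1.31% and 0.582% of all genes). Their median log2 difference was -0.11 at 260 h and -0.68 at 360 h. Over time 15 rose and 4 fell in wild type (20.9% and 18.9% of all genes), and 9 rose and 5 fell in the knockout (13.3% and 10.2% of all genes).

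Among the 8 other genes of the complex, 2 of 6 tested fell at 360 h, where 13.5% of all genes were called lower. At 260 h 0 of 6 were called, where 1.31% of all genes were called lower and 0.582% higher, so that count is no result about the complex. Slco6c1, an organic anion transporter that travels with the channel, was at 485, 657 and 434 CPM in wild type and 2.52, 4.71 and 5.26 CPM in the knockout at 360 h, a difference of -6.96 ± 1.03 (adjusted p = 0.000585). Catsperz, a small subunit inside the cell, was at 1190, 1523 and 769 CPM in wild type and 572, 333 and 384 CPM in the knockout (-1.43 ± 0.48, adjusted p = 0.0437). The Catsperz call was lost without library 1 or 2 of wild type or library 2 or 3 of the knockout (adjusted p from 0.0852 to 0.165). Not called were Catspere1 (-0.43 ± 0.55, adjusted p = 0.623), Catspere2 (-0.56 ± 0.26, adjusted p = 0.147) and C2cd6, which is needed to bring the channel into the tail (-0.12 ± 0.33, adjusted p = 0.837). Catspere2 passed without library 1 of the knockout (-0.86, adjusted p = 0.0392). Catspere1 and Catspere2 were 93.03% identical over 2927 aligned bases, so that their split is uncertain too.

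Efcab9, the calcium sensor that pairs with CATSPERZ, was the 1 tested gene of the complex with a higher value in the knockout at 360 h. Its wild-type level was 1.19, 1.98 and 50.5 CPM, and that of the knockout 121, 64.5 and 81.1 CPM. The difference of 2.29 ± 1.21 did not pass (adjusted p = 0.205) and did without library 3 of wild type (5.78, adjusted p = 0.000913). With all libraries kept it also passed with limma-voom (3.58, adjusted p = 0.00677) and with thinned cells (2.76, adjusted p = 0.0469). Which cells held the Efcab9 UMIs of library 3 of wild type at 360 h was not examined. Tmem249 and Tmem262, membrane proteins of the complex, did not pass the filter, with 150 and 357 UMIs in that library and 0 to 3 in each of the other 11.

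Of the ion transport and signalling genes, Enkur, a calmodulin-binding protein of the flagellum, showed the smallest p at 260 h, with 73.8, 105 and 78.8 CPM in wild type and 21.7, 18.2 and 14.4 CPM in the knockout (-2.24 ± 0.28, adjusted p = 0.00103). Prkaca, the catalytic subunit of protein kinase A, rose at 260 h (1.34 ± 0.32, adjusted p = 0.041) and fell at 360 h (-2.26 ± 0.32, adjusted p = 0.00016). Its levels were 41.4, 20.8 and 17.5 CPM in wild type and 81.1, 59.8 and 58.9 CPM in the knockout at 260 h, and 147, 157 and 114 against 27.1, 29.3 and 31.0 CPM at 360 h. Atp2b4, the plasma membrane calcium pump of the sperm tail, fell at both times (-1.05 ± 0.25, adjusted p = 0.043, and -1.82 ± 0.25, adjusted p = 0.000126). The early calls of Prkaca and Atp2b4 were lost with library 3 as the only wild type at 260 h (1.81, adjusted p = 0.0925, and -1.13, adjusted p = 0.182). They were also lost without library 2 of wild type or any 1 library of the knockout at 260 h, and that of Prkaca also without library 3 of wild type (adjusted p from 0.0862 to 0.289 for Prkaca and 0.0782 to 0.215 for Atp2b4).

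At 360 h the smallest p among these genes was that of Pkd2l1, a cation channel gene, with 50.2, 42.3 and 37.9 CPM in wild type and 0.882, 2.87 and 1.72 CPM in the knockout (-4.55 ± 0.48, adjusted p = 1.13e-05). Cacna1h, a T-type calcium channel gene, was at 35.6, 75.7 and 37.3 CPM in wild type and 2.77, 3.89 and 4.99 CPM in the knockout (-3.66 ± 0.44, adjusted p = 4e-05). Adcy10, the bicarbonate-sensing adenylyl cyclase that works with the SLC9C1 exchanger in sperm, was at 107, 121 and 76.2 CPM in wild type and 18.0, 25.7 and 26.9 CPM in the knockout (-2.10 ± 0.35, adjusted p = 0.000585). Adcy10 did not pass at 260 h (-0.63 ± 0.36, adjusted p = 0.52). Slc26a8, an anion transporter of the sperm annulus, fell by 1.82 ± 0.35 (adjusted p = 0.0014).

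The genes most like each of the 7 across the 12 libraries were found by Pearson's r of log2(CPM + 1) among 10049 genes with a mean of at least 5 CPM (10050 for Catsper1). The 12 points fall into 4 groups and share libraries and depth, so r describes likeness of pattern and has no test. Slc9c1 was most like Clec4g (r = 0.988), Ndst4 (0.986) and Zfp133-ps (0.985). Catsperb was most like Dnali1 (0.991), Cfap221 (0.991) and Armc2 (0.988), and Catsperd like Slc22a16 (0.990), Cmtm2b (0.989) and Lgals8 (0.988). Catsper2 was most like Dpp8 (0.985), Whamm (0.982) and Ehbp1l1 (0.982). Pomgnt1 was among the nearest 3 of both Catsperg1 (0.959, after Tmem39b at 0.974 and Zmiz2 at 0.971) and Catsperg2 (0.959, after Plekha5 at 0.972 and Izumo4 at 0.960). Catsper1 was less closely matched, its nearest genes being Oaz3 (0.870), Cabyr (0.832) and Zfp780b (0.831).

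Among the genes of the set themselves, Catsperg1 and Catsperg2 had the highest r (0.958), and Catsper2 with Catsperb the next (0.923). Catsperd was less like the 2 Catsperg genes (0.322 and 0.316) than like Catsperb (0.818). Catsper1 had r from 0.0087 to 0.275 with the other 6.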

How the data were processed

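RNA of single hand-picked spermatogenic cells was measured by a modified Smart-seq2 protocol that keeps the 3′ ends, per the labels' protocols. The deposited tables hold raw UMI counts per gene and cell barcode. Per the submitters' processing notes, the tools were STAR 2.5.3a, featureCounts 1.6.4 and UMI-tools 1.0.0, with build mm10. Strand and the handling of reads that fit several genes: not given in the sources used here. Counts of near-identical or overlapping genes are therefore uncertain.

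Only the 929 cells (of 1152 barcodes) listed in the authors' deposited cell table were used, with its 5 k-means clusters. All 12 libraries use the same 96 barcodes, and no doublet caller was run. ERCC spike-in UMIs (3.10% to 11.9% of UMIs) were left out of library sizes. Counts were summed per library, filtered by filterByExpr (20279 genes kept), scaled by TMM and fitted over all 12 libraries with edgeR's quasi-likelihood test (edgeR 4.0.16, R 4.3.3), 1 coefficient per group, two-sided, with Benjamini-Hochberg adjustment over all genes and a threshold of 0.05. The SE is the log2 fold change divided by the square root of F. Whether the libraries of 1 group are separate animals is not said in the labels, and a p-value here reflects the scatter of these libraries, part of which may be technical. The precision of each sum is set by its UMIs, and floors of 3 counts cover counting error only. Fits were tested on simulated data. Shares of cells were also computed after thinning each kept cell to 40000 gene UMIs (all kept cells had more). Within-cluster sums needed at least 10 cells per library.

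Alternatives were DESeq2 (1.42.0) size factors and Wald test, limma-voom (limma 3.58.1), ERCC scaling, no low-count filter, the compared groups alone, the replicate number as a block, each library left out, thinned cells, no pre-meiotic cells and single clusters. The named genes were all 9 genes, the complex genes, up to 6 further pathway genes per genotype comparison with the smallest p among those called, and the 3 genes most like each. Ccna1 and Ovol2 were chosen after their values were seen. The 9 genes and all lists were chosen with earlier results of these data known.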

Additional observations from a re-analysis of the deposited data

Results flagged for a closer look

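For 1 of the 7 tested genes of the set, the genotype effect itself differed between the times in edgeR's quasi-likelihood test. The knockout effect on Slc9c1 at 360 h minus that at 260 h was -2.47 on the log2 scale (adjusted p = 0.00973). Of the further pathway genes, 4 of 29 differed in the same way: Cacna1h by -4.57 (adjusted p = 0.000615), Prkaca by -3.59 (0.000473), Pkd2l1 by -3.31 (0.0058) and Slc26a8 by -1.75 (0.0497). Of all genes tested, 2.78% were called lower in this comparison. The difference of Slc26a8 missed the threshold when any 1 of 11 libraries was left out (adjusted p from 0.0508 to 0.179) and passed without library 3 of wild type at 360 h (0.0452).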

How the results depend on the processing

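Counts of the 7 tested genes called in each comparison (3 at 260 h, 5 at 360 h, 6 over time in wild type, 2 over time in the knockout, 1 for the difference between the times) depended on some choices, and the cause was not tested. At 260 h 5 of 9 genes were called with no low-count filter, 1 with limma-voom, 0 with only cluster 1 cells and 1 with only library 3 as wild type. The 5 without the filter were Catsperb, Catsperg2, Slc9c1, Catsperg1 (-1.44, adjusted p = 0.00858 in edgeR's quasi-likelihood test) and either Catsper3 or Catsper4. Mean levels at 260 h were higher in the knockout for Catsper3 (0.59 against 0.08 CPM) and Catsper4 (1.06 against 0 CPM). The 5 calls are therefore not all of genes lower in the knockout. The early calls of Slc9c1 had adjusted p = 0.0672 with limma-voom and 0.0534 with only the compared groups. Over time in wild type 3 were called with only library 3 as wild type at 260 h. For the difference between the times 3 were called with no low-count filter and 2 with the DESeq2 Wald test. The 3 were Slc9c1, Catsper3 and Catsper4, the last of which did not pass the filter, nor did Catsper3. With each library left out in turn, the low-count filter was rerun, and the genes of the set that were tested (of 9) could change. The counts then ran from 2 to 5 at 260 h, 5 to 7 at 360 h and 6 to 8 over time in wild type. They were 2 in the knockout over time and 1 to 2 for the difference. Such a count can hide a lost call behind a newly tested gene. Over time in wild type, the Catsperg1 call was lost in 4 of 6 of these fits. The 5 genes called at 360 h were called under every alternative run at that time.

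Of 569 single values of these genes under the alternatives, 506 kept their direction and side of the threshold, 26 missed it, 18 newly passed and 19 changed sign.

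With the replicate number as a block, 3, 6, 5, 2 and 1 genes were called. Of 18 pairs of libraries with the same number, 1 had correlated deviations over 0.1 (r from -0.20 to 0.17). A pair with different numbers, library 1 of wild type and library 2 of the knockout at 260 h, had r = 0.23. The labels do not say what a number marks. Deviations within groups of 3 libraries cannot decide whether libraries of 1 number shared an animal or a day.

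Values that changed sign were called in neither fit. They were Catsper1 at 360 h (0.11 with limma-voom, 0.30 with the replicate block), Catsperg1 over time in the knockout (0.0700 with ERCC scaling, 0.0474 with no low-count filter), Catsperb for the difference between the times (-0.13 with ERCC scaling, -0.13 with limma-voom, -0.15 with only library 3 as wild type), C2cd6 at 360 h (0.0449 with only the compared groups) and Catsperd at 260 h (-0.0223 in cluster 1). With a library left out, sign changes fell within these ranges: Catsperd at 260 h -0.0796 to 0.59, Catsperg1 -0.26 to 0.17 and Catsperg2 -0.67 to 0.00307 over time in the knockout, C2cd6 at 360 h -0.35 to 0.0632, Catsperb for the difference -0.57 to 0.59, and Catsper1 -0.37 to 5.72 over time in the knockout, -2.30 to 5.40 at 260 h and -7.21 to 0.50 for the difference.

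Scaling by ERCC spike-ins moved the median of all genes to -0.28 at 260 h and -0.48 at 360 h, and to 0.33 and 0.04 over time in wild type and knockout. The share of calls that were higher was then 12.6%, 17.1%, 72.5% and 81.2%, beside 30.8%, 39.8%, 52.5% and 56.6%. On that scale Slc9c1 differed by -5.33 and Catsperd by -1.33 (adjusted p = 0.0208) at 360 h. Over all genes, calls at 260 h ran from 4 (cluster 1) to 953 (DESeq2) beside 383, at 360 h from 2600 to 5795 beside 4554, over time in the knockout from 2567 to 6048 beside 4759, in wild type from 4989 to 9077 beside 8082, and for the difference from 408 to 2174 beside 1030.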
